A study of Mus musculus with 2 samples.

Results

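Genes for subunits of chromatin remodelling complexes were compared in the apex of E12.5 mouse hearts, between hearts with 2 floxed copies and hearts with 1 floxed copy of Ezh2, the histone methyltransferase of Polycomb complex PRC2. They were chosen by symbol alone, as the entries of the deposited table whose name begins with Smarc, Actl6, Ino80 or Arid, Dpf, Brd, Chd, Mta or Mbd and a digit, together with Pbrm1 and Ep400. This gave 57 of 29383 genes, of which 52 had at least 1 CPM (counts scaled to a common library size by TMM) in a library, against 16185 of all genes. The mutant, called KO here, was Nkx2-5cre, Ezh2f/f, with both Ezh2 copies floxed. The control, called Het, was Nkx2-5cre, Ezh2f/+, so both groups carried the Cre driver and at least 1 floxed copy. Nkx2-5 is active in the heart lineage, so other cells of the apex can keep Ezh2, and the labels call the material cardiomyocytes without naming a sort. Each group was 1 library from 8 pooled hearts, so the spread between animals was not measured. No difference given here was checked in a replicate, and no p-value was computed. The intervals are 95% limits for counting error alone and compare these 2 libraries, not the genotypes.

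Remodellers are ATP-driven motors of the SNF2 family that slide, evict or exchange nucleosomes, and most work in large complexes whose subunits come in alternative forms. SWI/SNF complexes (BAF, PBAF and the non-canonical form) open chromatin and are known from fly and mouse genetics as opponents of Polycomb repression and as partners of cardiac transcription factors. NuRD joins a CHD motor to histone deacetylases, ISWI enzymes space nucleosomes, and INO80, SRCAP and TIP60/p400 complexes handle the histone variant H2A.Z. Of the 57 genes, 40 encode subunits or enzymes of these kinds. The other 17 were not assigned to these complexes here: the BET readers of acetylated histones, the scaffold gene Brd1, Mbd genes other than Mbd2 and Mbd3, and ARID proteins outside SWI/SNF.

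Promoters were printed for 4 members that span what was measured: Dpf3 and Smarcd3, heart-enriched SWI/SNF subunits that were higher in KO, Smarca1, the member with the lowest ratio, and Actl6b, a neuronal subunit with no read in either library. The RefSeq windows (GRCm38.p6) run from 250 bases before to 50 after the start, 5′ to 3′, with every CG dinucleotide in capitals. They lie at chr12:83487687-83487986 on the minus strand for Dpf3, chr5:24601953-24602252 on the minus strand for Smarcd3, chrX:47892564-47892863 on the minus strand for Smarca1 and chr5:137553296-137553595 on the plus strand for Actl6b.
Dpf3: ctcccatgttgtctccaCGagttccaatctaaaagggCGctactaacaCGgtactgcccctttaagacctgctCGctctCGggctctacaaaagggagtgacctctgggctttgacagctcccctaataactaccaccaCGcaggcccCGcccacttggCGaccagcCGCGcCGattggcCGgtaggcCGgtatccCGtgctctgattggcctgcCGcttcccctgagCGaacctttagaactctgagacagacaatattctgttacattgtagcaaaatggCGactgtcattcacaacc
Smarcd3: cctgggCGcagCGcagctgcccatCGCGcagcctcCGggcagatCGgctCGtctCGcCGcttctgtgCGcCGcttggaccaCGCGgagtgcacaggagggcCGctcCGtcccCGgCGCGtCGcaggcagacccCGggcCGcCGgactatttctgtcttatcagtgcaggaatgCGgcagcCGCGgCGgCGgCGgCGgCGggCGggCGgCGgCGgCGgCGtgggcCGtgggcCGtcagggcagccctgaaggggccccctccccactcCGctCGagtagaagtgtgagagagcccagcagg
Smarca1: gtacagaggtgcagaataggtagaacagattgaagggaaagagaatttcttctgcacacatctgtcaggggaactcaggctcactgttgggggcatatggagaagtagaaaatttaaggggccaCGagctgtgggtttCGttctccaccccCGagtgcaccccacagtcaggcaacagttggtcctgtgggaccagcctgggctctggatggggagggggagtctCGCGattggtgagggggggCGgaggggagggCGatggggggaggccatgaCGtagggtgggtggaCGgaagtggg
Actl6b: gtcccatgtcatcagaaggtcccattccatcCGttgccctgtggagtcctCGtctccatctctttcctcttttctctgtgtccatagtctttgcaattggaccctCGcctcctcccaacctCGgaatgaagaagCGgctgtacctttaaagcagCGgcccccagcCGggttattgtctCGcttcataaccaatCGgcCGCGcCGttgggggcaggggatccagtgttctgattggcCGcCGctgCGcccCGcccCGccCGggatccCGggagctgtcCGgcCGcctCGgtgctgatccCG
The windows hold 17 CG in Dpf3, 40 in Smarcd3, 9 in Smarca1 and 23 in Actl6b. CG reads the same on both strands. RefSeq gave a window for 43 members (the first listed where there were several). Of the 39 with at least 1 CPM, 36 (92.3%) had 10 or more CG, with a median of 25, and of the 4 under 1 CPM, 3 did, with a median of 26. Among all genes with a window, the share was 82.4% of those with at least 1 CPM and 22.7% of those under it, and 43.9% of all promoters. The unread members Actl6b and Arid3c had 23 and 29 CG and the thinly read Chd5 had 32, within the range of 4 to 50 in the members with at least 1 CPM, while Mbd3l2, with 4 reads in KO and 0 in Het, had 0.

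The libraries held 14122579 reads in KO and 13944617 in Het. Ezh2 itself (chromosome 6, 47480280 to 47545337 in the coordinates of the files, build not given in the sources used here) had 319 reads in the library labelled KO and 493 in Het, a ratio of 0.601 (0.521 to 0.694), over floxed and other exons alike. All 13 cardiomyocyte markers examined were present, at 100.4 to 13244 CPM in KO and 87.97 to 15440 CPM in Het, and together took 5.65% of scaled reads in KO and 5.62% in Het. Markers of other cells were present too: summed levels in KO and Het were 752 and 785 CPM for 7 endothelial genes, 184 and 176 CPM for 5 epicardial genes, 1595 and 1753 CPM for 6 mural and fibroblast genes, 3459 and 4352 CPM for 6 erythroid genes and 30.8 and 32.1 CPM for 5 leukocyte genes. In such bulk tissue fewer cells of a type and less RNA per cell cannot be told apart.

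None of the 52 genes with at least 1 CPM differed by as much as 1.5-fold between the libraries. At the 2-fold size, 0 of 52 were higher in KO (all genes: 0.605%) and 0 lower (0.173%), and at 1.5-fold, 0 were higher (3.45%) and 0 lower (1.88%), all on the scale log2((KO CPM + 1)/(Het CPM + 1)). All 52 averaged 5 CPM or more, and among all genes at that level 1.86% were at least 1.5-fold higher and 1.05% lower. At 1.25-fold, 4 were higher, Chd7, Mbd6, Dpf3 and Brd3 (7.69% of members against 12.4% of all genes), and 2 were lower, Smarca1 and Smarcal1 (3.85% against 10.7%). Among all genes averaging 5 CPM or more, the shares were 8.79% higher and 9.2% lower. Smarcd3, Arid1b and Arid3b fell just short of 1.25-fold on this scale, but their plain ratios, without the pseudocount, were 1.25. The count at this size thus depends on the pseudocount, and the share of all genes without it was not computed. The log2 ratios ran from -0.42 to 0.44, with quartiles of -0.03 and 0.20 and a median of 0.06, against quartiles of -0.18 and 0.17 and a median of -0.01 over all genes. They leaned to the higher side: 36 of 52 (69.2%) were above 0, against 48.8% of all genes, and the counting interval lay above a ratio of 1 in 18 (34.6% against 17.4%) and below it in 7 (13.5% against 19.1%). Among all genes averaging 5 CPM or more, 19% had an interval above 1 and 22.7% below.

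**Figure D1:**
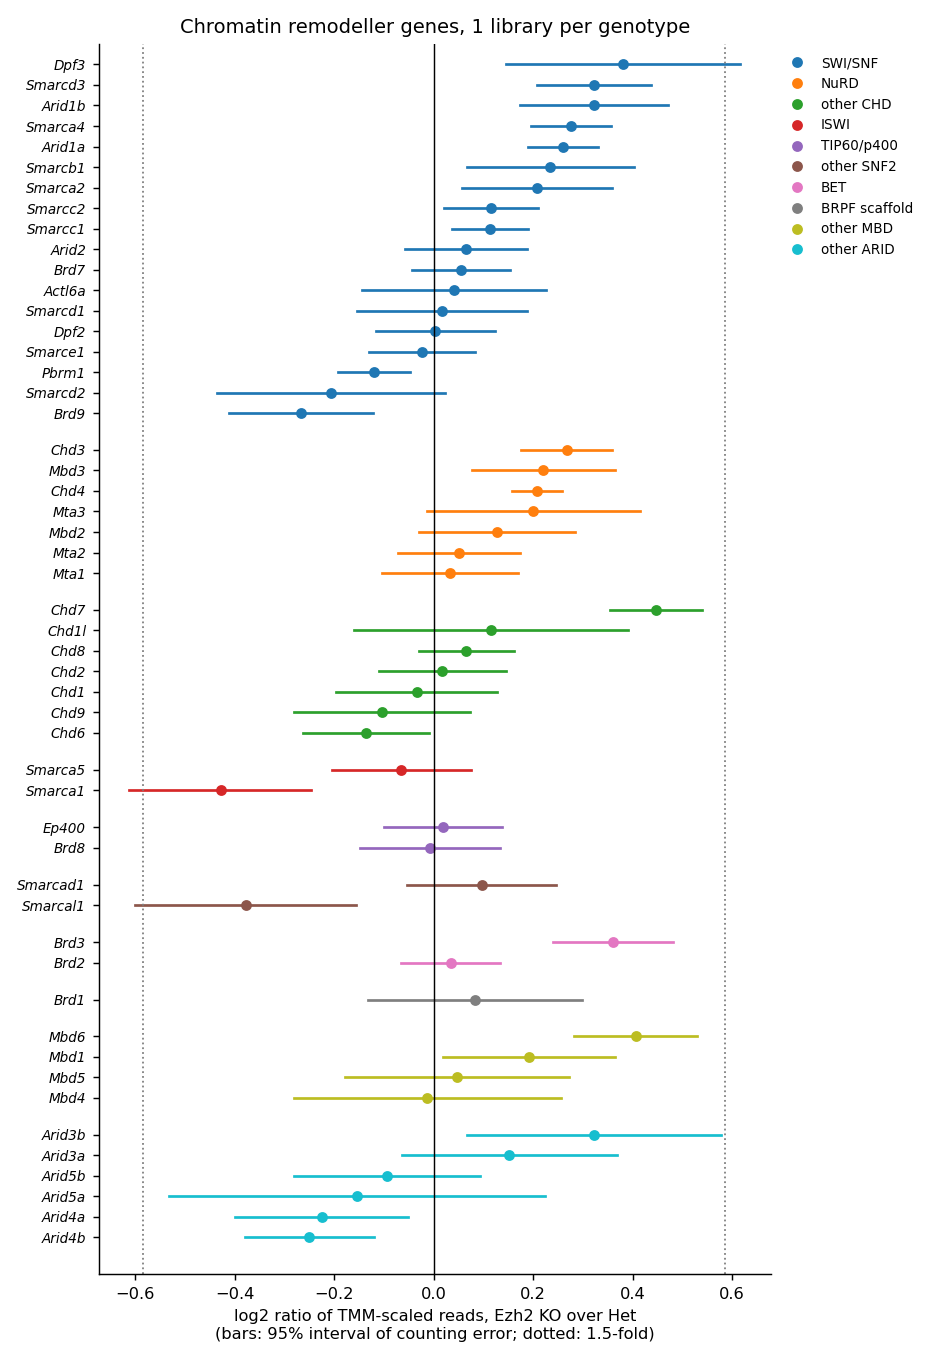
Log2 ratio of scaled reads, KO over Het, for 51 of the 52 remodeller genes with at least 1 CPM, grouped by complex and sorted within each group; points are the single comparison of 1 library per genotype, bars the 95% counting interval and dotted lines a 1.5-fold difference. All points lie inside the dotted lines, with Chd7 farthest to the right and Smarca1 farthest to the left.

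The log2 ratios went with base composition. Across the 52 genes GC-rich transcripts had the higher log2 ratios (Spearman rho 0.53, a description over genes that share 2 libraries), as was the case across 13238 genes with a GC value (rho 0.41); with transcript length rho was 0.002 over the members. The GC content of the members ran from 39.1% in Smarce1 to 63.1% in Mbd6, with a median of 51.3%, against 49.8% for all genes. When a quadratic trend on GC content and length was subtracted, the members' median was 0.02 and 31 of 52 (59.6%, against 47.2% of all genes with a value) were above 0. After subtraction 0 members were at least 1.5-fold higher (1.27% of genes averaging 5 CPM or more) or lower (0.534%), 0 were at least 1.25-fold higher (5.8%), and the largest remaining values were those of Chd7 (0.30), Dpf3 (0.30) and Brd3 (0.27). At least 1.25-fold lower were then 2 members (3.85% against 5.47%), Smarcal1 at -0.43 and Smarcd2 at -0.33, followed by Arid5a at -0.31, Brd9 at -0.28 and Smarca1 at -0.27. For each gene below, the value after this subtraction is called its GC-adjusted log2 ratio.

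**Figure D2:**
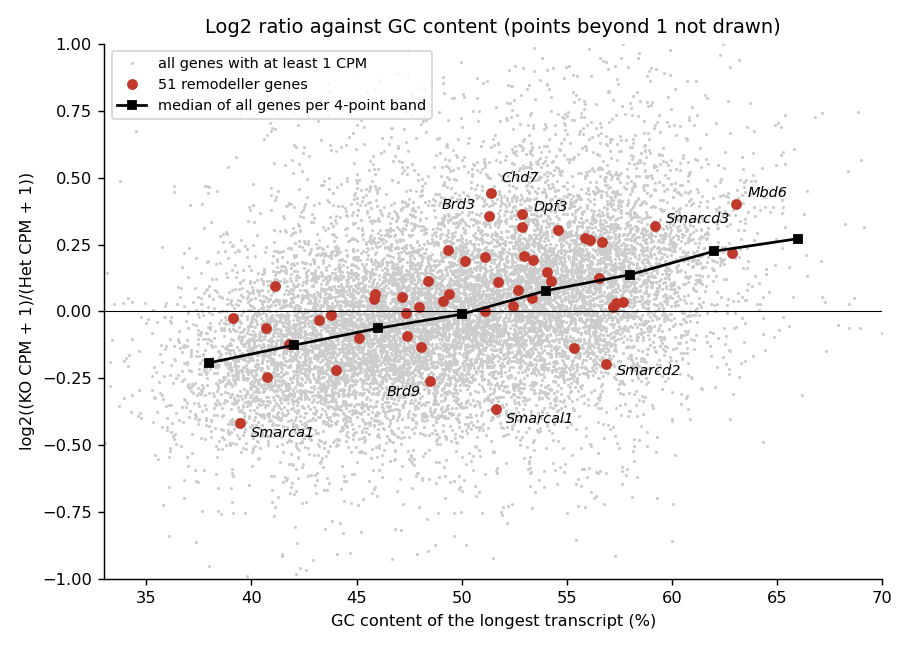
Log2((KO CPM + 1)/(Het CPM + 1)) against the GC content of the longest transcript, for all genes with at least 1 CPM (grey), 51 of the 52 remodeller genes (red) and the median of all genes in bands of 4 percentage points (black). The red points rise with GC content as the black line does. After removal of the GC and length trend, 31 of 52 members (59.6%, against 47.2% of all genes with a value) were above 0. Chd7, Brd3 and Dpf3 are among the points above the line and Smarcal1, Smarca1, Brd9 and Smarcd2 among those below it.

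SWI/SNF genes were slightly higher in KO as a group, with a median log2 ratio of 0.09 over 18 genes (0.08 GC-adjusted). Of the 18, 14 were above 0 (all genes: 48.8%), and 12 were after GC adjustment (47.2% of all genes with a value). The 2 alternative motors, Smarca4 (BRG1) and Smarca2 (BRM), had nearly the same ratio. Smarca4 had 2892 reads in KO and 2220 in Het, a ratio of 1.21 (1.14 to 1.28), with a GC-adjusted log2 ratio of 0.07. Smarca2 had 810 reads in KO and 652 in Het, a ratio of 1.15 (1.04 to 1.28), with 0.11. Per kilobase of transcript Smarca4 made up 76.8% of the pair in KO and 75.97% in Het, and the read ratio of Smarca4 to Smarca2 was 1.05 times (0.931 to 1.18) that of Het. This comparison of 2 genes within a library does not depend on how the libraries are scaled.

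The structural core genes had ratios of 0.984 to 1.18. Smarcc1 and Smarcc2, the paired scaffolds BAF155 and BAF170, had 3079 and 1996 reads in KO against 2645 and 1712 in Het, ratios of 1.08 (1.03 to 1.14) and 1.08 (1.02 to 1.16). The GC-adjusted log2 ratio was 0.08 for Smarcc1 and -0.02 for Smarcc2, so the direction of Smarcc2 turned. Smarcb1, the SNF5 subunit that touches the nucleosome, had 661 reads in KO and 522 in Het (ratio 1.18, 1.05 to 1.32), and Smarce1, the HMG-box subunit BAF57, had 1459 in KO and 1378 in Het (0.984, 0.913 to 1.06). Smarce1, with the lowest GC content of the members with at least 1 CPM, turned too, from a log2 ratio of -0.02 to a GC-adjusted one of 0.18, and Smarcb1 had a GC-adjusted log2 ratio of 0.15. Actl6a, the actin-related BAF53 form of dividing cells, had 508 reads in KO and 459 in Het (1.03, 0.905 to 1.17). Its neuronal alternative Actl6b was unread in both libraries, and a count of 0 allows up to 0.206 CPM in KO and 0.222 CPM in Het (3 counts).

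Alternative subunits shifted against each other at the BAF60 and BAF45 positions. At BAF60, Smarcd3, the form known as BAF60c and required for heart development in the mouse, had a ratio above 1, and Smarcd2 one below 1 with an interval that held 1. Smarcd3 (chromosome 5, 24098440 to 24107820) had 1452 reads in KO and 1079 in Het, 99.7 and 79.8 CPM, a ratio of 1.25 (1.15 to 1.35). Smarcd1 had 590 reads in KO and 542 in Het (1.01, 0.899 to 1.14), and Smarcd2 had 305 in KO and 327 in Het (0.867, 0.739 to 1.02). Per kilobase Smarcd3 took 57.1% of the position in KO and 50.3% in Het, while Smarcd2 took 16.5% in KO and 20.9% in Het. The read ratio of Smarcd3 to Smarcd2 was 1.44 times (1.21 to 1.73) that of Het, and that of Smarcd3 to Smarcd1 1.24 times (1.07 to 1.43), with GC-adjusted log2 differences of 0.43 and 0.24. Smarcd3 has the highest GC content of the 3, at 59.2%, and its own GC-adjusted log2 ratio was 0.09. Opposite-strand models overlap it, 2010209O12Rik with 721 reads in KO and 583 in Het and AK012891 with 412 in KO and 368 in Het, and with the strand setting of the counting not given in the sources used here, reads of these models cannot be told apart.

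At the BAF45 position, which reads histone tails through PHD fingers, Dpf3 was higher in KO relative to Dpf2. Dpf3 (BAF45c, chromosome 12, 84314738 to 84828658), known from heart and skeletal muscle, had 360 reads in KO and 257 in Het, 24.7 and 18.999 CPM, a ratio of 1.30 (1.11 to 1.53), and it kept a GC-adjusted log2 ratio of 0.30. The widely expressed Dpf2 had 1179 reads in KO and 1093 in Het (1.002, 0.922 to 1.09). A same-strand model named Gja10 overlaps Dpf2 and had 803 reads in KO and 749 in Het. Dpf3 relative to Dpf2 was 1.30 times (1.08 to 1.56) its Het value, and per kilobase its share of the position was 17.2% in KO and 14.1% in Het. Phf10, which lies outside the name pattern, was counted at this position too and took 26.9% in KO and 27.9% in Het. Dpf1, the neuronal form, stands in the table under its older name Neud4 and so is not among the 52. It had 56 reads in KO and 25 in Het, 3.85 and 1.85 CPM, a ratio of 2.08 (1.28 to 3.48), but only 2.64% of the position in KO and 1.35% in Het. Beside it, 6 neuronal markers summed to 7.21 CPM in KO and 6.80 CPM in Het, 3 of 6 were higher in KO, and the part of such cells in the Dpf1 value was not tested.

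**Figure D3:**
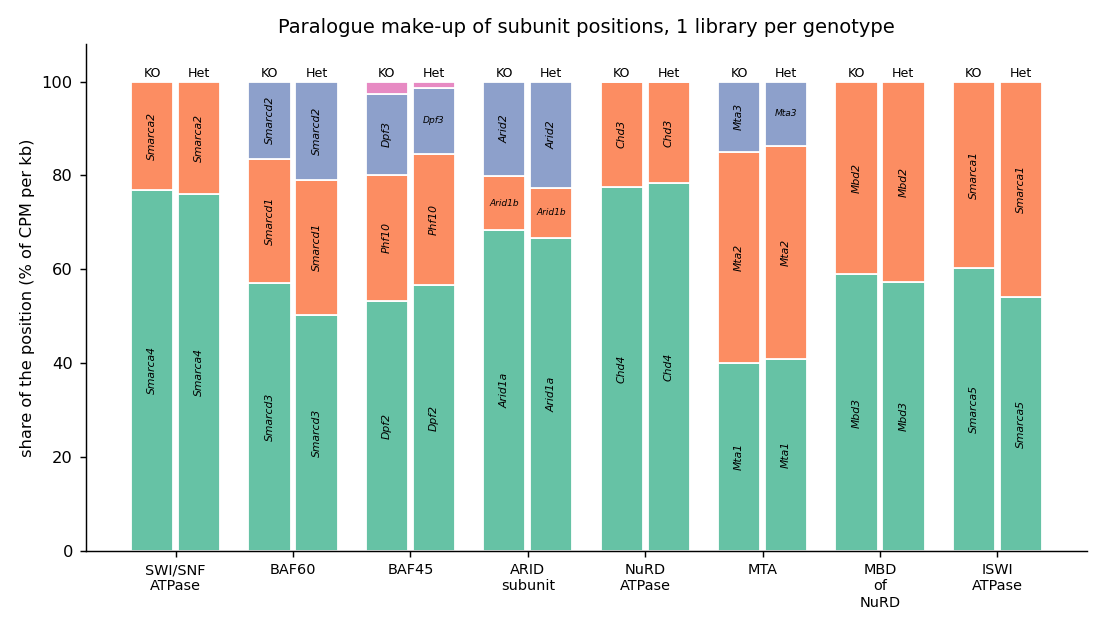
Share of each subunit position taken by its alternative genes, in percent of CPM per kilobase of the longest transcript, in the KO (left) and Het (right) library; the thin top segment at BAF45 is Dpf1. Smarcd3 takes 57.1% of BAF60 in KO and 50.3% in Het and Smarca5 takes 60.3% of ISWI in KO and 54.2% in Het, while Smarca4 and Smarca2 are split almost alike.

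Targeting subunits separate the SWI/SNF forms: Arid1a and Arid1b mark BAF, Arid2, Pbrm1 and Brd7 mark PBAF, and Brd9 marks the non-canonical form. The BAF pair was higher in KO. Arid1a had 3741 reads in KO and 2902 in Het (1.198, 1.14 to 1.26), and Arid1b had 872 in KO and 648 in Het (1.25, 1.13 to 1.39). Their GC-adjusted log2 ratios were 0.02 and 0.13, and Arid1b relative to Arid1a was 1.04 times (0.931 to 1.17) its Het value. The PBAF genes were near or below 1: Arid2 had 1153 reads in KO and 1024 in Het (1.05, 0.961 to 1.14), Brd7 1766 in KO and 1579 in Het (1.04, 0.970 to 1.11), and Pbrm1, whose product is required for heart chamber maturation in the mouse, 3074 in KO and 3106 in Het (0.920, 0.875 to 0.967). The read ratio of Pbrm1 to Arid1a was 0.768 times (0.716 to 0.824) that of Het, and that of Arid2 to Arid1a 0.873 times (0.792 to 0.964). These 2 pairs join transcripts of unlike GC content, 41.8% and 45.9% against 56.7% for Arid1a, and the GC-adjusted log2 differences were -0.08 and 0.03. Brd9, a bromodomain subunit, had 746 reads in KO and 834 in Het (0.831, 0.752 to 0.919) with a GC-adjusted log2 ratio of -0.28, and relative to Brd7 it was 0.7998 times (0.708 to 0.903) its Het value. A model named Pb1 lies inside Pbrm1 and counts some of its reads, 1539 in KO and 1602 in Het.

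**Figure D4:**
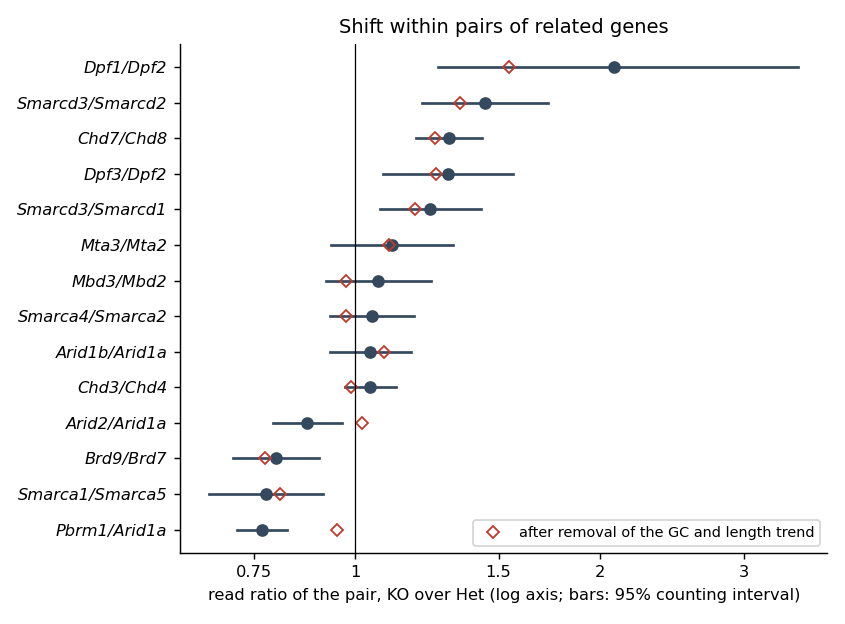
Read ratio of the first gene to the second in KO divided by that in Het, for 14 pairs, with 95% counting intervals (points and bars, log axis); open diamonds are the same shifts on the log2(CPM + 1) scale after removal of the GC and length trend. The interval lay above 1 in 5 pairs, below 1 in 4 and included 1 in 5, and the diamonds of Pbrm1/Arid1a and Arid2/Arid1a lie near 1. The pairs were chosen after these values were seen, some share a gene, and no background share was computed, so these counts only describe the plot.

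All 7 NuRD genes with at least 1 CPM were above 0 (all genes: 48.8%), with a median log2 ratio of 0.19. But after GC adjustment 5 of 7 were above 0 (47.2% of all genes with a value) and the median was 0.04. Chd4, the main motor of NuRD, had the most reads per kilobase of all members, 73.9 CPM per kilobase in KO and 64.02 in Het. It had 7206 reads in KO and 5800 in Het (1.15, 1.12 to 1.195), and a second model, mKIAA4075, holds the same 7206 and 5800 reads. Chd3, the alternative motor, had 2249 reads in KO and 1736 in Het (1.20, 1.13 to 1.28), and its read ratio to Chd4 was 1.04 times (0.970 to 1.12) that of Het. Chd5, the neuronal motor, had 10 reads in KO and 3 in Het (3.10, 0.798 to 17.5), under 1 CPM in both. Of the Mbd subunits, Mbd3 had 888 reads in KO and 708 in Het (1.17, 1.05 to 1.29) and Mbd2 729 in KO and 620 in Het (1.09, 0.980 to 1.22). The read ratio of Mbd3 to Mbd2, which replace each other in NuRD, was 1.07 times (0.920 to 1.24) that of Het. The MTA scaffolds had ratios of 1.02 (0.931 to 1.13) for Mta1, 1.04 (0.951 to 1.13) for Mta2 and 1.15 (0.990 to 1.33) for Mta3, and Mta3 relative to Mta2 was 1.11 times (0.934 to 1.32) its Het value.

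Chd7 had the highest ratio among the 52 genes, and the other CHD genes outside NuRD had ratios of 0.910 to 1.08. The median log2 ratio of the 7 was 0.02 (-0.02 GC-adjusted), with 4 above 0 (all genes: 48.8%). Chd7 (chromosome 4, 8617553 to 8793956), an enhancer-bound remodeller whose human gene is mutated in CHARGE syndrome, which includes heart defects, had 2327 reads in KO and 1586 in Het, 160 and 117 CPM. Its ratio was 1.36 (1.28 to 1.45), its log2 ratio 0.44 and its GC-adjusted log2 ratio 0.30. Its relative Chd8 had 1892 reads in KO and 1680 in Het (1.05, 0.979 to 1.12), so Chd7 relative to Chd8 was 1.30 times (1.19 to 1.43) its Het value. Chd6 had 1006 reads in KO and 1027 in Het (0.910, 0.834 to 0.994) and Chd9 526 in KO and 525 in Het (0.931, 0.823 to 1.05). Chd1 and Chd2, remodellers of transcribed genes, had ratios of 0.977 (0.873 to 1.09) and 1.01 (0.927 to 1.11), and Chd1l, which acts in DNA repair, 1.08 (0.895 to 1.31).

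The lowest ratios belonged to Smarca1 and Smarcal1. Smarca1 (chromosome X, 45162547 to 45245696) encodes SNF2L, an ISWI motor known from differentiating neurons in the mouse. It had 443 reads in KO and 554 in Het, 30.4 and 40.95 CPM, a ratio of 0.743 (0.654 to 0.843), and the Snf2l model inside it had 106 reads in KO and 124 in Het. Smarca5, the SNF2H motor of dividing cells, had 858 reads in KO and 834 in Het (0.956, 0.868 to 1.05). Smarca1 relative to Smarca5 was 0.777 times (0.662 to 0.912) its Het value, with transcripts of like GC content, 39.5% and 40.7%. Smarcal1, an enzyme that rewinds DNA at stalled replication forks, had 308 reads in KO and 372 in Het (0.769, 0.659 to 0.897). Its GC-adjusted log2 ratio of -0.43 was the lowest of all members. Smarcad1, another SNF2 enzyme outside these complexes, had 787 reads in KO and 684 in Het (1.07, 0.964 to 1.19). In the TIP60/p400 complex, the motor Ep400 had 1232 reads in KO and 1130 in Het (1.01, 0.934 to 1.099) and the bromodomain subunit Brd8 859 in KO and 802 in Het (0.995, 0.903 to 1.097).

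Among the genes not assigned to these complexes, Brd3 and Mbd6 were higher and both Arid4 genes lower. Brd3, a BET reader that binds acetylated histones, had 1322 reads in KO and 957 in Het (1.28, 1.18 to 1.396), with a GC-adjusted log2 ratio of 0.27. Brd2, of the same family, had 1735 reads in KO and 1574 in Het (1.02, 0.956 to 1.097), with -0.18. The opposite-strand gene Wdr5 overlaps Brd3 and had 530 reads in KO and 428 in Het, and AK165817 on the same strand had 1046 in KO and 931 in Het. Brd1, the scaffold of a histone acetyltransferase complex, had 384 reads in KO and 337 in Het (1.06, 0.912 to 1.23). A same-strand model, mKIAA4191, overlaps Brd1 and had more reads, 680 in KO and 632 in Het.

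Mbd6, whose human protein binds a histone H2A deubiquitinase complex, had 1298 reads in KO and 910 in Het (1.33, 1.22 to 1.44). Its transcript was the richest in GC of all members, and its GC-adjusted log2 ratio was 0.07. The methyl-CpG repressor Mbd1 had 612 reads in KO and 498 in Het (1.14, 1.01 to 1.29), while Mbd5 (1.03, 0.884 to 1.21) and the repair glycosylase Mbd4 (0.991, 0.823 to 1.19) were close to 1. Mbd3l1 had no read in either library and Mbd3l2 had 4 in KO and 0 in Het. Of the ARID proteins outside SWI/SNF, with a median of -0.11 (-0.13 GC-adjusted), the RB-binding Arid4a had 524 reads in KO and 569 in Het (0.856, 0.758 to 0.965) and its relative Arid4b 916 in KO and 1012 in Het (0.841, 0.768 to 0.921). The log2 ratios of Arid4a and Arid4b were -0.22 and -0.25, and the GC-adjusted ones were -0.16 and -0.14. Arid3b, a DNA-binding factor, had 300 reads in KO and 223 in Het (1.25, 1.05 to 1.49), with a log2 ratio of 0.31 and 0.17 GC-adjusted. Arid3a (1.11, 0.957 to 1.29), Arid5a (0.899, 0.692 to 1.17) and Arid5b (0.937, 0.823 to 1.07) had intervals that held 1, and Arid3c had no read.

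Partner subunits outside the name pattern lay near the median of all genes. The 56 genes had a median log2 ratio of 0.02 (0.007 GC-adjusted), with 31 above 0 (all genes: 48.8%) and 25 below. They included Ino80 and Ino80b to Ino80e, which the table lists under older names. On the scale with the pseudocount of 1 CPM, 0 of these 56 reached a 2-fold difference (all genes: 0.605% higher in KO, 0.173% lower). A 1.5-fold rise was reached by 2 of them (all genes: 3.45%), and a 1.5-fold fall by 0 (1.88%). The pair comprised Dpf1, whose plain ratio without the pseudocount was 2.08 (1.28 to 3.48), and Cecr2. Cecr2, an ISWI partner required for neural tube closure in the mouse, had 149 reads in KO and 77 in Het (1.798, 1.36 to 2.399). The next highest was Bcl11a, a zinc-finger SWI/SNF subunit, with 440 reads in KO and 322 in Het (1.27, 1.10 to 1.47). The lowest were Tfpt of INO80, with 263 reads in KO and 345 in Het (0.708, 0.601 to 0.834), Actr6 of SRCAP, with 232 in KO and 304 in Het (0.709, 0.595 to 0.844), and the ISWI partner Baz1a, with 180 in KO and 229 in Het (0.730, 0.597 to 0.892). Their GC-adjusted log2 ratios were -0.49 for Tfpt, -0.17 for Actr6, whose transcript has a GC content of 38.1%, and -0.41 for Baz1a, and those of Dpf1, Cecr2 and Bcl11a were 0.60, 0.69 and 0.36. The motor Ino80 itself, listed as Inoc1, had 367 reads in KO and 363 in Het (0.939, 0.810 to 1.09).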

How the data were processed

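Reads per gene model are whole-number counts, and the normalized columns are CPM of the library total, both per the file headers; recomputed CPM differed from the authors' deposited values by at most 4.91e-11. The authors' deposited ratio (Het over KO) and p-value were not used. Aligner, counter, strand setting, p-value test and build: not given in the sources used here. Starts count from 0, and 1 was added. The largest deposited chromosome 1 coordinate, 197002909, lies beyond the last RefSeq GRCm38.p6 gene end there, 195291439. Gene spans and promoter windows are therefore not in the same coordinates. Per the labels' protocols the kit captured transcripts at full length.

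Rows of 1 symbol were summed (185 symbols, 0 members). Counts were scaled by TMM in edgeR 4.0.16 under R 4.3.3, with factors of 1.03 for KO and 0.970 for Het. Log2 ratios used a pseudocount of 1 CPM, and genes needed 1 CPM in a library. Printed ratios divide scaled counts, with exact conditional Poisson intervals, and pair shifts are conditional odds ratios (scipy 1.17.1). Without molecular identifiers reads are not independent molecules, so intervals hold counting error alone. The longest GENCODE M21 transcript per symbol gave GC content and length, and the trend was fitted over genes averaging 5 CPM or more. Of 52 partner list entries, 46 matched by symbol, 4 by synonym and 2 not; 6 genes of the role list that the table gives under synonyms were added. The scripts were tested on simulated counts. The members, lists, pairs and tests were chosen with earlier results of these data known, and the 1.25-fold size, the 14 pairs and the printed promoters after these values were seen. All members but 1, which is not reported here, are named. Values in full go to the 8 highest and 8 lowest ratios, the member with the highest mean CPM of each role, the motors and the exchangeable SWI/SNF subunits; of the partners, the 3 highest and 3 lowest.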

Additional observations from a re-analysis of the deposited data

How the results depend on the processing

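The counts of members at least 1.5-fold and 2-fold apart were 0 under all 9 alternatives: total-count, DESeq2 and upper-quartile scaling, pseudocounts of 0.1 and 5 CPM, no filter, a mean of at least 5 CPM, 1 row per symbol, and removal of the GC and length trend. Total-count scaling raised log2 ratios by 0.09 and put 41 of 52 members above 0, and DESeq2 and upper-quartile scaling put 38 there. The median over all genes moved too, from -0.008 to 0.07 under total-count, 0.005 under DESeq2 and 0.009 under upper-quartile scaling. The share of all genes above 0 was not computed under these scalings, so a lean of the member counts against all genes cannot be read from them. Removal of the trend took the median of the NuRD genes to 0.042, and turned Smarcc2 to -0.019. Among the partners, 1 was at least 2-fold higher at a pseudocount of 0.1 CPM, 0 were at least 1.5-fold higher at one of 5 CPM, and 1 was when genes averaging under 5 CPM, Dpf1 among them, were left out. Single members changed sign 24 times over the 9 alternatives, 15 of them under removal of the trend and 5 under total-count scaling; of those with a counting interval that excluded a ratio of 1, Smarcc2 alone did. No paired analysis was possible because each genotype has 1 library, and for the same reason no library could be left out. Genes under 1 CPM, such as Chd5, are too thinly read here for a ratio.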
